A study of Mus musculus with 9 samples.

Results

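The genes described are 50 genes of DNA replication and cell division, named by their symbols in the feature tables, out of 30406 genes present in the tables of all 9 libraries. Of these 50 members, 25 act in replication, 3 act at entry into S phase (Ccne1, Ccne2 and Cdc25a, called the G1/S members), and 22 act in mitosis or rise before it. The cells came from cultures of mouse embryonic fibroblasts (MEFs) transduced with lentivirus for neuronal transcription factors, which convert fibroblasts to induced neurons (iNs) and are switched on with doxycycline. Single-cell RNA sequencing with the 10x Chromium 3′ v3.1 kit was made on days 4, 7 and 10 from cultures labelled WT, Per1-/- (allele Per1tm1Drw) and Per2-/- (allele Per2tm1Drw), and all cultures received these factors. There was 1 library for each genotype and day, and the labels give neither the embryos nor a batch. Per1 and Per2 encode repressors of the circadian clock.

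A cell that divides first licenses its replication origins by loading the Mcm helicase, then copies its DNA in S phase, and later builds a spindle and separates its chromosomes. The genes for the replication machinery are mostly transcribed from late G1 into S phase under E2F factors, and many genes of mitosis are repressed in resting cells by the DREAM complex through a promoter element called CHR. Neurons and differentiated muscle fibres have left the cell cycle, whereas tissue macrophages and Schwann cells can divide.

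Many promoters of the members carry such elements, and 3 of each list are printed to show how the lists differ in them. Each sequence holds the 120 bases before the RefSeq start of the gene (GRCm38.p6), 5′ to 3′ on the strand of the gene, and the capitals mark matches to 1 of 3 motifs on either strand. The first motif is CHR, searched as TTTGAA or TTCGAA. The second is the CCAAT box. The third is an E2F site, searched as TTTCCCGC, TTTCGCGC, TTTGCCGC or TTTGGCGC. The mitosis members shown are Cdc20, an activator of the anaphase-promoting complex, Top2a, the topoisomerase that untangles sister chromosomes, and Cdk1, the kinase that starts mitosis.
Cdc20, chr4:118437344-118437463, minus strand: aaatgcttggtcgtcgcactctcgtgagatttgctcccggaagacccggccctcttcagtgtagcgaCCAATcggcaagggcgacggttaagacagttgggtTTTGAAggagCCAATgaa
Top2a, chr11:99024190-99024309, minus strand: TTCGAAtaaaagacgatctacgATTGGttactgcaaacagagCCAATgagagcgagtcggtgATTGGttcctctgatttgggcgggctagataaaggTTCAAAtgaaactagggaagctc
Cdk1, chr10:69352913-69353032, minus strand: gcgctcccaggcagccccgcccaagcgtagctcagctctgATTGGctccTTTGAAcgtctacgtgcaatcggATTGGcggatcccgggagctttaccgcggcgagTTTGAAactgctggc
The replication members shown are Mcm6, a subunit of the helicase, Orc1, the largest subunit of the origin recognition complex, and Pcna, the sliding clamp of the polymerases.
Mcm6, chr1:128359706-128359825, minus strand: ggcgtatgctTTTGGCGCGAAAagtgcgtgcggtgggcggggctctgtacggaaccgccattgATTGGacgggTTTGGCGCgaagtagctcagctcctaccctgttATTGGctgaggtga
Orc1, chr4:108579334-108579453, plus strand: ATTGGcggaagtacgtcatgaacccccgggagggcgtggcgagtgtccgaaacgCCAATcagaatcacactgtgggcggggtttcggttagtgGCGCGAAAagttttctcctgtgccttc
Pcna, chr2:132253181-132253300, minus strand: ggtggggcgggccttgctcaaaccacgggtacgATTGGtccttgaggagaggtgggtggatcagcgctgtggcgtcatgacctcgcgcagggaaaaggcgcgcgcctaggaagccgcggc

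The RefSeq promoter table used here gave a window, from 250 bases before the start to 50 after it, for 40 of the 50 members. CHR was found in 15 of 18 mitosis windows (83.3%) and in 4 of 20 replication windows (20%), against 21.7% of 27025 promoters of all genes. The E2F motifs were found in 10 of 20 replication windows (50%), in 1 of 18 mitosis windows (5.56%) and in 2.60% of all promoters. CCAAT was found in 94.4% of mitosis windows, 75% of replication windows and 41.1% of all promoters. The mitosis window with an E2F match was that of Cdk1, 131 bases before the start and so outside the bases printed above. Pcna had a CCAAT match and neither of the other motifs. A match is a string of letters and not a measured binding site.

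There were 95603 cell barcodes, with 126625215 to 353198559 unique molecular identifiers (UMI, counted RNA molecules) per library. Of these, 81999 had 3000 UMI or more, with no more than 20% of them mitochondrial, and 73557 remained as cells once 8442 presumed doublets were set aside. The library labelled WT on day 10 stood apart, since 55.4% of its barcodes passed against 86.1% to 94.5% in the others. A barcode found in 2 or more libraries was carried by 1900 of the cells kept. Over the cells kept, Per1 transcript was at 9.12, 9.51 and 10.3 CPM (UMI scaled so that each sum has an equal total) under the label Per1-/- on days 4, 7 and 10, and at 6.31, 6.61 and 7.79 CPM under WT. For Per2 the level under the label Per2-/- was 6.30, 4.99 and 6.42 CPM, against 2.58, 2.75 and 3.02 CPM under WT. Neither transcript was lower under its knockout label, the part of the transcript that the alleles remove is not given in the sources used here, and the genotypes below are the labels of the libraries. The study checked MEFs of these genotypes for loss of each protein by western blotting, so that transcript level alone does not decide the genotype.

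Cells were clustered without the members and without the other cell cycle genes listed, and clusters were called macrophage-like (6460 cells), fibroblast-like (29293), neuron-like (9645), Schwann-like (2820), skeletal muscle-like (2736), astrocyte-like (1098) or mesothelial-like (559) from marker genes. All 17 macrophage markers were raised in each of the 3 macrophage-like clusters, and all 13 Schwann markers in the Schwann-like cluster. The other classes had only part of their markers raised. The number was 15, 11 and 18 in the neuron-like clusters, 8 in the skeletal muscle-like, 8 in the astrocyte-like and 9 in the mesothelial-like cluster. The neuron-like cluster with 11, led by Gcg, held 3029 cells. A cluster led by Gcg stayed unnamed when cells were clustered with the members included. A further 20946 cells stayed in no named class. Most of them carry fibroblast markers, so a wider fibroblast-like class was also tried. A cluster led by macrophage genes, with all 17 markers raised, also stayed in no class, because 63.9% of its cells over all libraries were marked as doublets. With marked cells included, 17 fibroblast markers were each found in at least 50% of its cells, against 4 in each macrophage-like cluster. Whether its kept cells are macrophages alone was not tested. The marked part was 25.1% in the library labelled WT on day 10 and 79.9% to 97.8% in the others. Of its 1008 kept cells, 814 came from the library labelled WT on day 10, at a median depth of 4349 UMI, where only 249 cells (median 23127 UMI) were macrophage-like. Values of macrophage-like cells in that library are therefore also given with those cells added, as a wider macrophage-like class. The UMI of each class were summed in each library, and only sums were tested. All 50 members passed the filter on low counts in every comparison.

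A cell was counted as having mitosis transcripts when it held at least 2 UMI of the 22 mitosis members after thinning to 3000 UMI. The share of such cells was 22.1% of Schwann-like cells (95% Clopper-Pearson interval 20.6% to 23.7%), 19.6% of astrocyte-like cells (17.3% to 22.1%), 18.9% of macrophage-like cells (17.95% to 19.9%) and 7.80% of fibroblast-like cells (7.499% to 8.12%). It was 2.70% (2.38% to 3.04%) in neuron-like cells and 2.78% (2.19% to 3.46%) in skeletal muscle-like cells, classes whose mature cells do not divide. Shares at or under this level were not read as a sign of division, and their source was not tested. Cdc25b, 1 of the 22 mitosis members, was held by 9.24% of neuron-like and 7.46% of skeletal muscle-like cells. The next highest mitosis members there were Birc5 (1.57% of neuron-like cells) and Cdk1 (2.23% of skeletal muscle-like cells). The part of Cdc25b in this level was not tested. Intervals here and below cover counting error only. These shares pool all libraries, and the order of Schwann-like and macrophage-like cells changed between libraries, as given below. Before thinning, the shares were 43.1%, 45.4%, 54.5%, 40.0%, 25.4% and 31.9% in the same order, at median depths of 12610, 20457, 22006, 22374, 12211 and 17820 UMI per cell. Both at least 2 mitosis UMI and at least 2 replication UMI were held by 16.2% of Schwann-like cells, 14.0% of macrophage-like cells, 4.86% of fibroblast-like cells and 0.59% of neuron-like cells.

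The macrophage-like share was lowest in the library labelled Per2-/- on day 10, and in both mutants it was highest on day 4. It was 32.2% (24.9% to 40.3%), 40.6% (35.9% to 45.4%) and 33.3% (26.8% to 40.4%) in WT, Per1-/- and Per2-/- on day 4. On day 7 it was 34.2% (30.1% to 38.4%), 18.5% (16.5% to 20.7%) and 13.7% (11.8% to 15.8%), and on day 10 it was 22.5% (17.5% to 28.2%), 16.6% (14.6% to 18.7%) and 5.37% (4.05% to 6.97%). The 3 day 4 intervals overlap, whereas those of both mutants lie under that of WT on day 7. In the wider macrophage-like class the day 10 shares were 31.7% (28.9% to 34.6%), 16.6% and 6.09%, so that the WT share depended on these cells.

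In fibroblast-like cells the share was 9.74%, 11.3% and 12.6% in WT, Per1-/- and Per2-/- at day 4, 5.37%, 6.05% and 4.10% at day 7, and 8.41%, 3.79% and 4.66% at day 10. Every day 4 value lay above every later one. In the wider class the same shares were 8.54%, 9.95% and 11.7%, then 4.21%, 3.03% and 3.55%, then 6.54%, 2.45% and 2.14%. The clusters within the fibroblast-like class differed between libraries. A cluster led by Adh1 and Bmper held 0.64% of the class in Per1-/- on day 4 and 65.4% on day 10. A cluster led by Adamts3 and Tnn held 1.91% in Per1-/- and 55.6% in Per2-/- on day 7. The part of this in the shares was not tested. The Schwann-like share ran from 12.6% (Per1-/- on day 10) to 36.0% (WT on day 4) and the neuron-like share from 1.28% to 4.91%. Differences within a day have no replicate and were not tested.

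**Figure D1:**
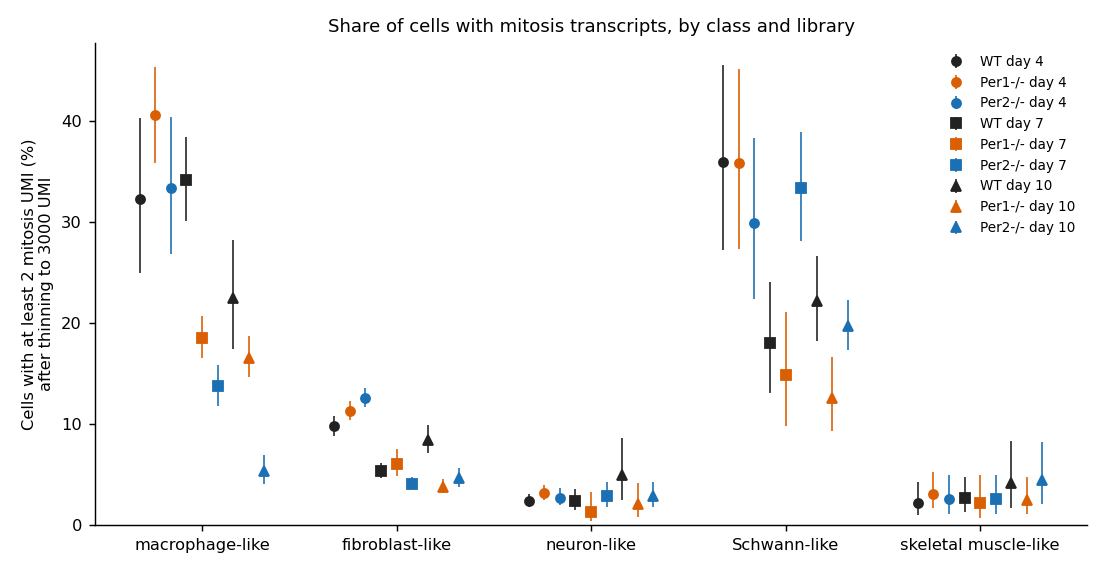
Percent of cells with at least 2 UMI of the 22 mitosis members after thinning to 3000 UMI (y axis) for each class and library, with 95% Clopper-Pearson intervals for counting error. Macrophage-like cells lie at 32.2% to 40.6% on day 4 and at 5.37% to 22.5% on day 10, where WT is at 31.7% in the wider class, and neuron-like cells sit between 1.28% and 4.91%.

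The cells with mitosis transcripts were 40.7% fibroblast-like, 21.7% macrophage-like and 11.1% Schwann-like over all libraries. Macrophage-like cells held 8.06%, 18.8% and 8.37% of them in WT, Per1-/- and Per2-/- at day 4, 36.4%, 60.6% and 27.2% at day 7, and 6.64%, 49.0% and 10.996% at day 10. In WT on day 10, 56.1% of them were in no named class, against 3.93% to 17.8% in the other libraries. With the wider macrophage-like class the day 10 values were 39.98%, 51.2% and 12.9%, so that the WT value rests on how those cells are named. Macrophage-like cells were the majority in the library labelled Per1-/- on day 7, and in the wider class also in Per1-/- on day 10. In Per2-/- on day 10 the largest part, 41.9%, was Schwann-like.

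Over all libraries, macrophage-like and fibroblast-like cells with mitosis transcripts were concentrated. Of the macrophage-like cells that had them, 69.9% lay in 1 of 3 clusters, led by Npy, C5ar1 and Il7r, where 51.4% of cells had them (49.0% to 53.8%) against 7.34% and 9.16% in the other clusters. That cluster held 60.5%, 67.8% and 66.2% of macrophage-like cells in WT, Per1-/- and Per2-/- at day 4, 53.1%, 28.3% and 13.0% at day 7, and 26.9%, 16.3% and 3.44% at day 10. In the wider macrophage-like class the day 10 values were 6.30%, 15.6% and 3.34%, so that the WT value and the order of WT and Per1-/- rest on the cells added. Its own share of cells with mitosis transcripts stayed between 40.2% and 63.5% over the libraries. It held 54.3% to 87.9% of the macrophage-like cells with mitosis transcripts in 8 libraries and 34.0% in Per2-/- on day 10, where a larger cluster held 54.7%. Of the 29293 fibroblast-like cells, 1411 lay in 1 cluster in which 97.0% had mitosis transcripts, and in the rest of the class the share was 3.29%. The clusters were formed without the members, but genes that vary with them took part.

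**Figure D2:**
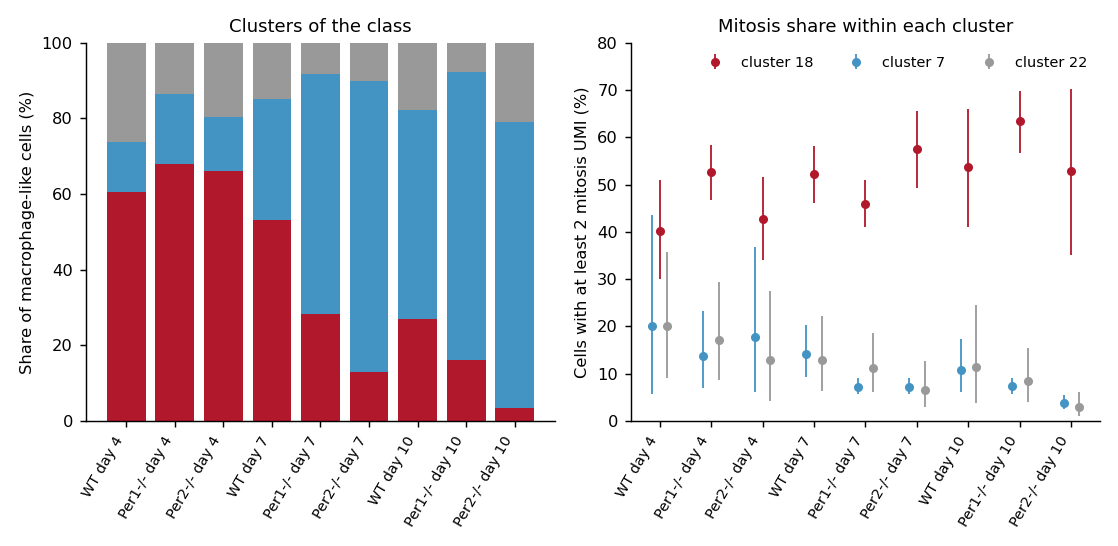
Share of macrophage-like cells in each of the 3 clusters by library (left), and the share of cells with at least 2 mitosis UMI in each cluster (right, with 95% Clopper-Pearson intervals); y axes in percent. The cluster with the most cells of this kind (numbered 18) holds 67.8% of macrophage-like cells in Per1-/- on day 4 and 3.44% in Per2-/- on day 10.

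Macrophage-like cells had more transcript of most members than fibroblast-like cells of the same libraries. In edgeR's quasi-likelihood test with Benjamini-Hochberg adjustment across the 15933 genes that passed the filter, 46 of 50 members were higher, where 37.4% of all genes were, and 1 was lower, where 47.2% of all genes were. Higher were 22 of 25 replication, 2 of 3 G1/S and 22 of 22 mitosis members. The median log2 fold change was 1.41 over the members, 1.17 over replication and 1.503 over mitosis members, and -0.17 over all genes tested. Without the library labelled WT on day 10 the call, in either direction, was made for 45 members (share of all genes not given). With the wider macrophage-like class 46 were higher and 1 lower, where 38.5% and 44.5% of 16061 genes were.

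Mcm10, which helps to activate the helicase, was higher by a log2 fold of 3.18 ± 0.17 (SE), and Cdt1, which loads the helicase, by 3.01 ± 0.15. Pcna was higher by 2.49 ± 0.10, a 5.61-fold difference with the smallest adjusted p of the members (4.09e-10). Mcm5, Mcm3 and Mcm6 of the helicase were higher by 2.76 ± 0.19, 2.08 ± 0.12 and 1.61 ± 0.13. Cdc6 and Orc1, which act at the origin before loading, were higher by 2.38 ± 0.18 and 2.23 ± 0.18, and the largest adjusted p of these 8 was 1.76e-07 (edgeR). The exception was Orc6, a small subunit of the origin recognition complex, which was lower (-0.38 ± 0.12, adjusted p 0.0135). Tipin, of the fork protection complex, and Prim1, a primase subunit, did not pass, with 0.03 ± 0.14 and 0.30 ± 0.17 (adjusted p 0.840 and 0.117, edgeR).

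Of the G1/S members, Ccne2, a cyclin E, was higher by 1.26 ± 0.27 (adjusted p 0.000809) and the phosphatase gene Cdc25a by 0.23 ± 0.10, just inside the threshold (0.0487), while Ccne1 was at -0.11 ± 0.15 (0.507, all edgeR). The mitosis members were higher within a narrow range, from 0.56 ± 0.21 for Cdc20 (adjusted p 0.0239, edgeR) to 1.90 ± 0.19 for Birc5 of the chromosomal passenger complex. Cdk1 was higher by 1.503 ± 0.15 and its cyclins Ccna2 and Ccnb2 by 1.82 ± 0.20 and 1.61 ± 0.20. Bub1 of the spindle checkpoint was at 1.78 ± 0.21, the mitotic kinases Plk1 and Aurkb at 1.75 ± 0.21 and 1.69 ± 0.20, and the spindle motor Kif23 at 1.504 ± 0.16, with a largest adjusted p of 7.95e-06 among these 8 (edgeR).

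**Figure D3:**
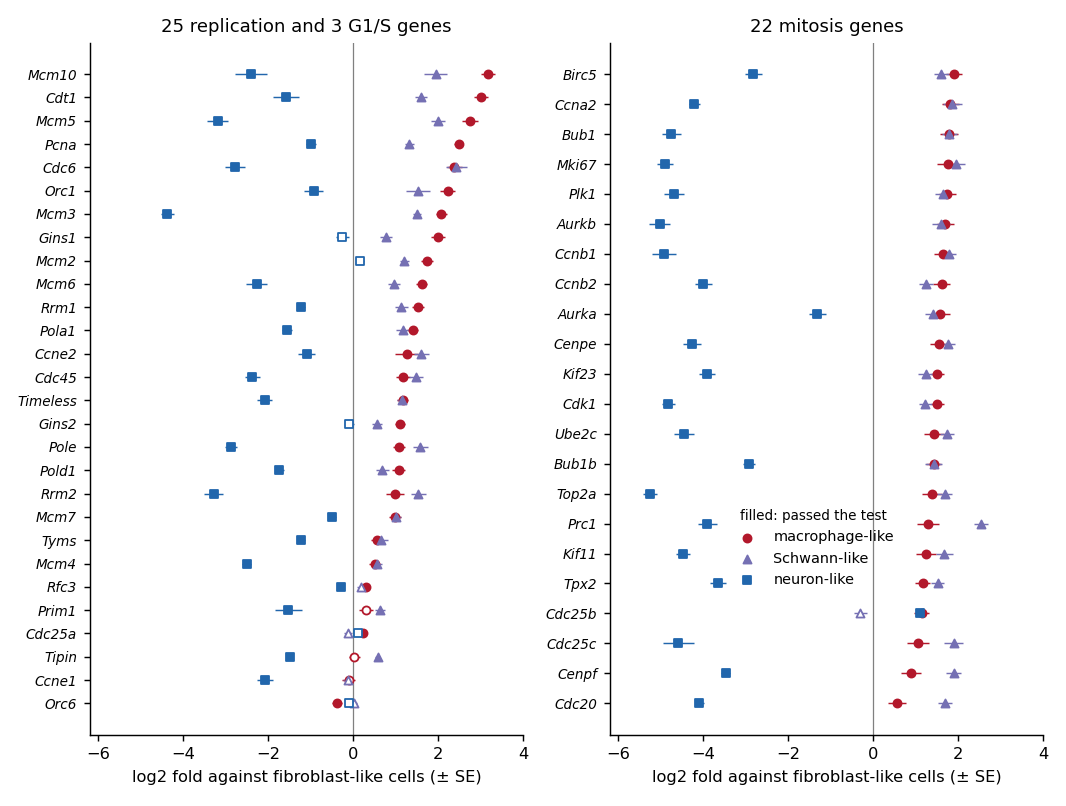
Log2 fold change against fibroblast-like cells (x axis) of every member in macrophage-like, Schwann-like and neuron-like cells, by list, from edgeR over the 9 libraries; bars are the standard error and filled points passed the test. Macrophage-like and Schwann-like points lie mostly above 0, and neuron-like points below it, down to -5.25 for Top2a.

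Of the members, 12 replication and 5 mitosis members were higher in macrophage-like than in fibroblast-like cells in 9 of 9 libraries. For this count and the next, the share of all genes is not given here. When the library labelled Per2-/- on day 10 was set aside, 21 replication, 1 G1/S and 21 mitosis members were higher in 8 of 8, so that this library held most of the exceptions. There the 22 mitosis members summed to 295 CPM in macrophage-like and 414 CPM in fibroblast-like cells. In the wider fibroblast-like class the sum was 155 CPM, so that the order of the classes there rests on how that class is drawn.

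Neuron-like cells had less transcript of 44 of 50 members than fibroblast-like cells and more of 1, where 40.8% of the 16969 genes tested were lower and 38.9% higher. Lower were 21 of 25 replication, 2 of 3 G1/S and 21 of 22 mitosis members. The lists differed in depth, with a median log2 fold change of -1.56 over replication and -4.24 over mitosis members, and -0.01 over all genes tested. Without the library labelled WT on day 10 the call, in either direction, was made for 46 members (share of all genes not given).

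Among the mitosis members Top2a was at -5.25 ± 0.16 on the log2 scale, Mki67, the proliferation antigen, at -4.90 ± 0.19 and Cdk1 at -4.83 ± 0.15. Bub1, the spindle motor Kif11, Ccna2, Cdc20 and the kinetochore gene Cenpf stood at -4.75 ± 0.23, -4.48 ± 0.17, -4.21 ± 0.14, -4.09 ± 0.11 and -3.47 ± 0.10, with a largest adjusted p of 2.54e-09 among these 8 (edgeR). The exception was Cdc25b, a phosphatase that activates cyclin-dependent kinases, which was higher by 1.10 ± 0.06 (adjusted p 5.25e-09) and higher in 9 of 9 libraries. Its level was 19.2 to 33.6 CPM in neuron-like and 7.84 to 11.2 CPM in fibroblast-like sums, without overlap.

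The replication members fell apart by gene in neuron-like cells. Mcm3 was at -4.37 ± 0.15, the ribonucleotide reductase subunit Rrm2 at -3.28 ± 0.22, and Mcm4 at -2.51 ± 0.11. The polymerase subunits Pole, Pold1 and Pola1 were at -2.87 ± 0.15, -1.74 ± 0.11 and -1.56 ± 0.11, and Cdc45 and Tipin at -2.37 ± 0.18 and -1.47 ± 0.07, with a largest adjusted p of 1.32e-07 among these 8 (edgeR). Mcm2 (0.17 ± 0.09), Gins1 (-0.25 ± 0.15), Gins2 (-0.09 ± 0.11) and Orc6 (-0.10 ± 0.09) did not pass, with adjusted p from 0.115 to 0.485 (edgeR). Of the G1/S members, Ccne1 was at -2.07 ± 0.18 and Ccne2 at -1.09 ± 0.20, and Cdc25a did not pass (0.12 ± 0.06, adjusted p 0.0785).

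On the scale of pooled CPM, without the TMM scaling of the fit, the subunits of the same helicase ran from 6.55% of the fibroblast-like level for Mcm3 and 13.3% for Mcm5 to 102% for Mcm7 and 161% for Mcm2. Mcm7, and Rfc3 at 114%, were among the members called lower in the fit, so that their direction depends on the scale. In neuron-like sums Mcm2 stood at 11.8 to 26.4 CPM and Mcm3 at 0.64 to 2.44 CPM. The order of these subunits in fibroblast-like sums was different, with Mcm2 at 11.8 to 17.0 CPM and Mcm3 at 17.5 to 30.1 CPM.

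The 12 members chosen for printing in each library show the same split between the lists. Mki67 stood at 27.8 to 77.2 CPM in fibroblast-like sums (median 46.5) and at 1.68 to 2.54 CPM in neuron-like sums (median 2.17). Top2a stood at 48.0 to 137 CPM (median 85.9) and 0.64 to 4.45 CPM (median 3.12). Cdk1 stood at 25.8 to 47.8 CPM (median 35.4) and 0.49 to 2.58 CPM (median 1.90). No neuron-like library came near a fibroblast-like one for these genes. Ube2c, the ubiquitin-conjugating enzyme of the anaphase-promoting complex, was at 19.4 to 53.0 CPM (median 31.2) in fibroblast-like and 0.98 to 4.79 CPM (median 1.76) in neuron-like sums. Cdc20 was at 9.51 to 23.5 CPM (median 13.0) and 0.67 to 1.90 CPM (median 0.98). Ccnb1, a cyclin B, was at 8.33 to 21.8 CPM (median 12.2) and at most 1.91 CPM (median 0.54), with no UMI in neuron-like cells of Per1-/- on day 7.

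Among the replication members the gap between the classes was smaller for some genes. Pcna was at 26.5 to 57.8 CPM (median 32.5) in fibroblast-like and 14.7 to 42.7 CPM (median 23.2) in neuron-like sums, and Tyms, thymidylate synthase, at 16.3 to 24.9 CPM (median 19.6) and 9.83 to 12.9 CPM (median 12.1). Mcm6 was at 17.8 to 43.3 CPM (median 35.4) and 3.91 to 15.3 CPM (median 7.67). Pcna overlapped between the classes across libraries, and Tyms and Mcm6 did not. Rrm2 was at 9.28 to 20.5 CPM (median 13.7) and 0.98 to 3.36 CPM (median 1.91). Mcm5 was at 5.12 to 14.4 CPM (median 6.88) and 0.77 to 2.40 CPM (median 1.29), and Ccne2 at 6.23 to 14.3 CPM (median 8.71) and 3.82 to 9.59 CPM (median 6.93), so that Ccne2 also overlapped.

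Schwann-like cells had more transcript of 45 of 50 members than fibroblast-like cells and less of none, where 29.1% of 15653 genes tested were higher. Higher were 23 of 25 replication, 1 of 3 G1/S and 21 of 22 mitosis members, and 45 members were higher in 9 of 9 libraries. The share of all genes higher in 9 of 9 libraries is not given here. The median log2 fold change was 1.14 over replication and 1.68 over mitosis members, and -0.08 over all genes tested. Without the library labelled WT on day 10 the call, in either direction, was again made for 45 members (share of all genes not given). Prc1, which bundles the microtubules of the central spindle, was higher by 2.53 ± 0.17 (adjusted p 9.42e-08, edgeR), at 105 to 372 CPM (median 228) against 17.99 to 49.4 CPM (median 33.1) in fibroblast-like sums. Mki67, Cenpf, Bub1, Ccnb1, Ube2c, Cdc20 and Tpx2, a spindle assembly factor, were at 1.96 ± 0.20, 1.89 ± 0.18, 1.79 ± 0.18, 1.79 ± 0.17, 1.74 ± 0.16, 1.69 ± 0.16 and 1.51 ± 0.16.

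The replication members with the smallest p-values in Schwann-like cells were Mcm3 (1.51 ± 0.10), Mcm5 (1.997 ± 0.15), Pcna (1.33 ± 0.10), Cdt1 (1.60 ± 0.13), Mcm2 (1.21 ± 0.11), Timeless, the partner of Tipin (1.14 ± 0.11), Cdc6 (2.43 ± 0.25) and Pole (1.58 ± 0.18), with a largest adjusted p of 7.03e-06 (edgeR). Tipin, which did not pass in macrophage-like cells, was higher here by 0.57 ± 0.07 (adjusted p 1.29e-05), and the difference between the classes was not tested. Ccne2 was higher by 1.61 ± 0.19. The members that did not pass were Rfc3, Orc6, Ccne1, Cdc25a and Cdc25b (-0.30 ± 0.16, adjusted p 0.124, edgeR). By summed level the mitosis members exceeded the replication members in 8 of 9 Schwann-like sums, the exception being Per1-/- on day 10 with 832 and 881 CPM.

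Skeletal muscle-like cells resembled neuron-like cells in the direction of their differences, with 43 of 50 members lower, where 38.9% of 16199 genes tested were lower, and 2 higher, where 36.0% were. Lower were 21 of 25 replication, 1 of 3 G1/S and 21 of 22 mitosis members, with a median log2 fold change of -1.23 over replication and -3.24 over mitosis members, and -0.02 over all genes tested. Without the library labelled WT on day 10 the call, in either direction, was made for 44 members (share of all genes not given). The mitosis members with the smallest p-values were Cdk1 (-2.80 ± 0.12), Prc1 (-3.58 ± 0.20), Birc5 (-2.71 ± 0.16), Ube2c (-3.59 ± 0.22), Cdc20 (-2.87 ± 0.18), Aurkb (-4.18 ± 0.27), Plk1 (-4.15 ± 0.27) and Top2a (-4.36 ± 0.29), with a largest adjusted p of 3.96e-08 (edgeR). Top2a stood at 0.94 to 10.3 CPM (median 4.24) in these sums.

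The replication members with the smallest p-values in skeletal muscle-like cells were Mcm4 (-1.36 ± 0.07), Tipin (-1.23 ± 0.08), Mcm3 (-1.94 ± 0.14), Rrm2 (-2.89 ± 0.24), Prim1 (-2.35 ± 0.23), Tyms (-1.13 ± 0.13), Pole (-1.92 ± 0.22) and Pold1 (-1.35 ± 0.16), and Ccne1 was at -2.39 ± 0.16. Cdc25b was again the mitosis member that was higher (1.12 ± 0.13, adjusted p 5.34e-06), in 9 of 9 libraries as in neuron-like cells. Gins1, of the helicase complex, was higher by 0.46 ± 0.19 (adjusted p 0.0458, edgeR), a call that was lost under 10 alternatives.

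The balance of the lists therefore differed between the classes. The summed CPM of the 25 replication members divided by that of the 22 mitosis members lay between 0.69 and 1.402 in macrophage-like, 0.72 and 1.36 in fibroblast-like and 0.35 and 1.06 in Schwann-like sums. In the wider fibroblast-like class it lay between 0.76 and 2.34. It lay between 3.65 and 5.68 in neuron-like and between 2.99 and 5.51 in skeletal muscle-like sums, above all values of those 3 classes and of the wider one. In neuron-like sums the replication members held 282 to 325 CPM and the mitosis members 52.3 to 79.1 CPM. Cdc25b alone was at 19.2 to 33.6 CPM in neuron-like and 16.2 to 34.4 CPM in skeletal muscle-like sums, so that 1 gene weighs on these ratios. By mean level the highest replication member was Pcna in macrophage-like cells (186 CPM ± 53.3 SD, n = 9 libraries), Tipin in fibroblast-like cells (49.98 ± 3.91) and Orc6 in neuron-like cells (58.2 ± 8.90), and the lowest were Orc1 (3.91 ± 2.16), Orc1 (0.89 ± 0.36) and Cdc6 (0.39 ± 0.19). The highest mitosis member was Top2a in macrophage-like (207 ± 92.6) and fibroblast-like cells (85.2 ± 29.7) and Cdc25b in neuron-like cells (27.2 ± 4.53), and the lowest was Cdc25c in each class (4.54 ± 1.88, 2.53 ± 1.13 and 0.16 ± 0.17). Of the G1/S members, the highest were Ccne2 (24.0 ± 13.1), Cdc25a (20.9 ± 2.87) and Cdc25a (30.4 ± 3.002), and the lowest Ccne1 (15.1 ± 8.05), Ccne2 (9.94 ± 2.83) and Ccne1 (5.53 ± 1.41). These are tags of the 3′ end, so that they count molecules and need no scaling by length.

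Other genes of the same processes, taken from fixed lists, were counted in the same comparisons. Of 48 other replication genes, 40 were higher and 2 lower in macrophage-like cells (all genes 37.4% and 47.2%), among them Dna2, a nuclease of lagging strands (2.87 ± 0.11), Fen1, the flap endonuclease (2.74 ± 0.12), Gmnn, the inhibitor of Cdt1 (3.20 ± 0.15), and Pold3 (1.41 ± 0.07). In neuron-like cells, where 38.9% and 40.8% of all genes were called, 3 were higher and 39 lower (Clspn -3.33 ± 0.13, Rfc1 -1.13 ± 0.04, Tk1 -3.70 ± 0.16, Atad2 -2.87 ± 0.12), in Schwann-like cells 40 and 3 (all genes 29.1% and 37.9%), and in skeletal muscle-like cells 1 and 38 (36.0% and 38.9%). Of 64 other mitosis genes, 59 were higher and 2 lower in macrophage-like cells (Ncapg2 1.82 ± 0.08, Arhgap11a 1.97 ± 0.10, Incenp 2.52 ± 0.15, Ncaph 1.88 ± 0.12). The counts were 2 and 58 in neuron-like cells (Cks1b -2.53 ± 0.07, Cenpa -3.58 ± 0.11, Cdca3 -3.71 ± 0.12, Smc4 -2.56 ± 0.09), 63 and 1 in Schwann-like cells and 0 and 63 in skeletal muscle-like cells.

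The summed levels of the members in macrophage-like cells were lowest in Per2-/- on day 10 for both lists. The replication members summed to 1352, 1379 and 1219 CPM in WT, Per1-/- and Per2-/- at day 4, 1242, 871 and 684 CPM at day 7, and 1088, 846 and 413 CPM at day 10. The mitosis members summed to 1392, 1900 and 1595 CPM at day 4, 1813, 1247 and 848 CPM at day 7, and 1061, 992 and 295 CPM at day 10. The order WT, Per1-/-, Per2-/- from high to low held for both lists on days 7 and 10 and for neither on day 4. In the wider macrophage-like class the day 10 sums were 909, 837 and 426 CPM for replication and 1135, 1016 and 371 CPM for mitosis members, in the same order.

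**Figure D4:**
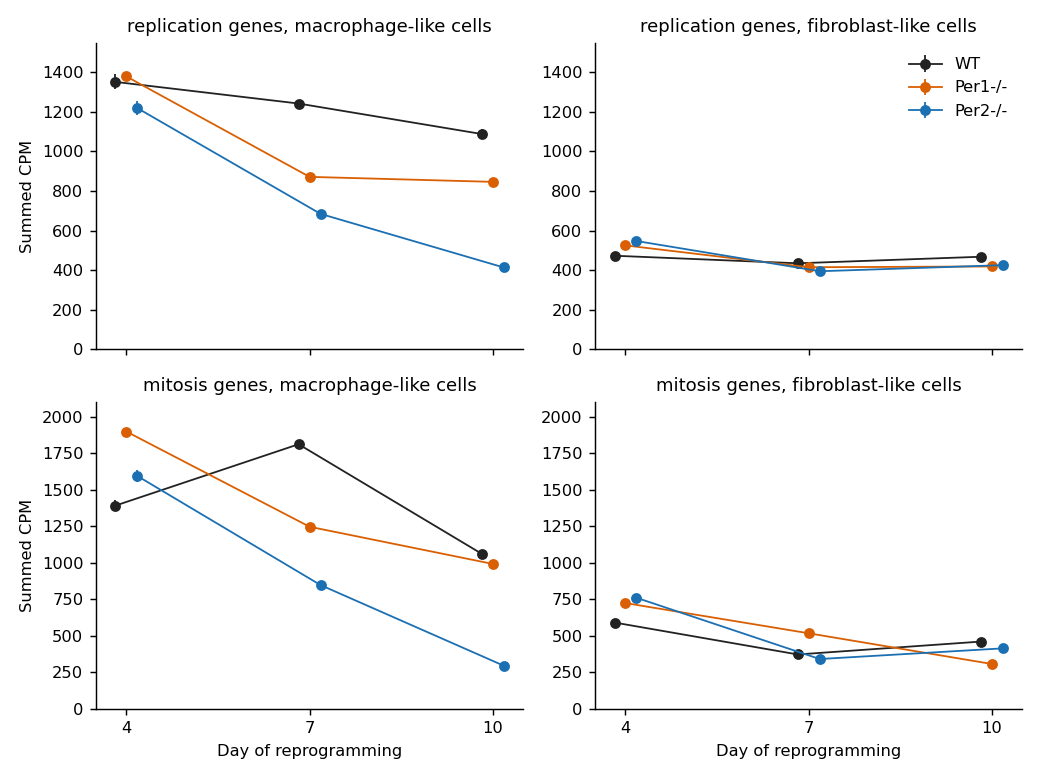
Summed CPM of the 25 replication and the 22 mitosis members (y axes) in macrophage-like and fibroblast-like cells by day (x axis), 1 point per library with an exact Poisson 95% interval that is mostly smaller than the point. In macrophage-like cells both lists are lowest in Per2-/- on day 10 (413 and 295 CPM), and in fibroblast-like cells the replication members stay between 394 and 547 CPM.

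Single members followed the summed levels in part, and on day 10 7 of 22 mitosis members were higher in Per1-/- than in WT. Mki67 was at 179, 234 and 238 CPM in WT, Per1-/- and Per2-/- at day 4, 207, 169 and 87.0 CPM at day 7, and 137, 108 and 18.1 CPM at day 10. Top2a was at 213, 308 and 293 CPM, then 323, 216 and 139 CPM, then 172, 161 and 35.1 CPM. The WT level of Top2a was higher on day 7 than on day 4, and that of each mutant was lower. Cdk1 was at 108, 133 and 103 CPM, then 121, 82.1 and 65.8 CPM, then 81.2, 80.3 and 36.9 CPM. Ube2c was at 83.2, 128 and 82.2 CPM, then 124, 80.5 and 61.7 CPM, then 63.3, 69.7 and 23.9 CPM. On day 10 the libraries labelled WT and Per1-/- were close to each other for both of these genes. Ccnb1 was at 48.7, 64.9 and 50.2 CPM, then 55.4, 36.2 and 26.9 CPM, then 32.2, 32.7 and 9.90 CPM. Cdc20 was at 19.1, 30.8 and 18.7 CPM, then 28.8, 17.3 and 14.5 CPM, then 15.2, 14.8 and 6.70 CPM.

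Among the replication members Mcm6 was at 148, 136 and 108 CPM in WT, Per1-/- and Per2-/- at day 4, 125, 87.4 and 54.7 CPM at day 7, and 108, 73.8 and 20.6 CPM at day 10, the same order on each day. Mcm5 was at 81.6, 70.1 and 67.0 CPM, then 68.0, 43.5 and 32.6 CPM, then 53.7, 33.7 and 12.7 CPM, and was in that order on each day as well. Rrm2 was at 37.8, 49.6 and 39.1 CPM, then 39.2, 22.6 and 15.3 CPM, then 25.7, 17.4 and 4.77 CPM. For Rrm2 the order was seen on days 7 and 10 only. Tyms was at 34.0, 39.0 and 31.3 CPM, then 34.5, 29.0 and 16.8 CPM, then 25.8, 23.0 and 10.1 CPM. Ccne2 was at 35.9, 36.6 and 35.8 CPM, then 37.1, 18.3 and 11.4 CPM, then 25.1, 12.8 and 2.67 CPM. Pcna differed from the other members in its course, at 185, 228 and 177 CPM, then 186, 133 and 122 CPM, then 284, 224 and 133 CPM, and was higher on day 10 than on day 7 under all 3 labels. Mcm6 was lower in Per2-/- than in WT on each day in neuron-like sums too (3.91, 7.38 and 7.67 against 6.69, 13.2 and 15.3 CPM). The same held in skeletal muscle-like sums (7.42, 6.50 and 9.75 against 11.1, 26.7 and 18.1 CPM). In Schwann-like sums Mcm6 was higher in Per2-/- on each day (92.4, 86.7 and 58.3 against 79.2, 76.5 and 45.8 CPM).

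Set side by side within each day, all 50 members were lower in macrophage-like cells labelled Per2-/- than in those labelled WT on day 7 (median log2 ratio of CPM + 1 -0.97) and on day 10 (-1.46), against 29 of 50 on day 4 (-0.05). For the label Per1-/- the counts were 14 of 50 on day 4 (median 0.22), 50 of 50 on day 7 (-0.53) and 43 of 50 on day 10 (-0.25). In the wider macrophage-like class the day 10 counts were 50 of 50 for Per2-/- (-1.22) and 39 of 50 for Per1-/- (-0.15). Both sets of ratios share the WT libraries, and each ratio sets 1 library against 1. Members that move together are not separate observations, and the share of all genes lower in these pairs is not given here. Per2-/- lay under Per1-/- for 44, 49 and 50 of 50 members on days 4, 7 and 10, with medians of -0.27, -0.43 and -1.19. Lower on all 3 days than in WT were 29 members in Per2-/-, of which 19 replication and 7 mitosis members, and 14 in Per1-/-.

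**Figure D5:**
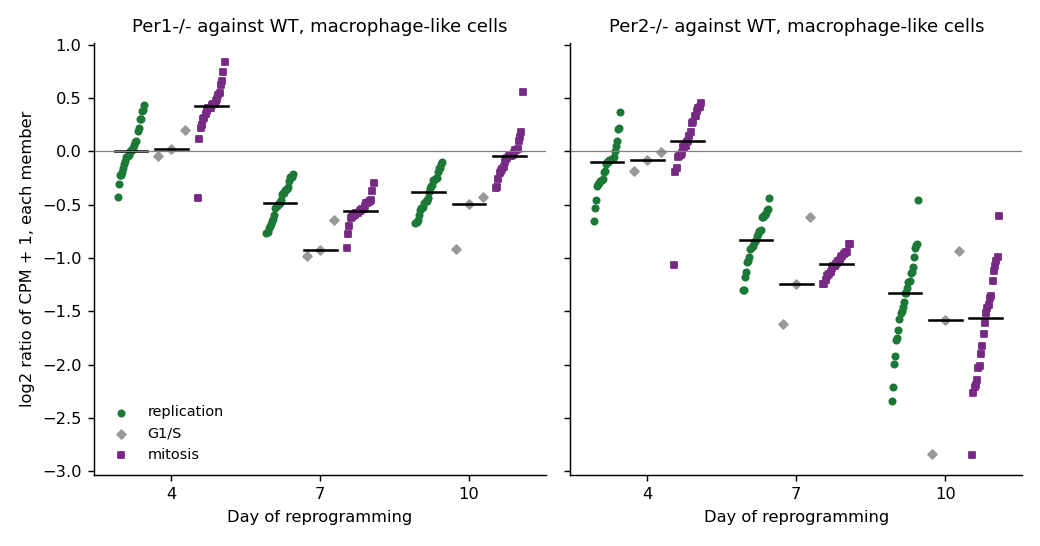
Log2 ratio of CPM + 1 of each member in macrophage-like cells (y axis), Per1-/- and Per2-/- against WT, by day and list; 1 point is 1 member and the bar is the median. Over all 50 members the medians for Per2-/- go from -0.05 on day 4 to -0.97 on day 7 and -1.46 on day 10.

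The fit over all 9 macrophage-like sums, in which the days serve as repeats of a genotype, did not call these differences. For Per2-/- against WT edgeR called 0 of 50 members and 0% of 12786 genes. At an unadjusted p under 0.05, 44 members were lower (25 of 25 replication, 3 of 3 G1/S and 16 of 22 mitosis members) and 0 higher, where 8.12% and 6.63% of all genes were, with a median log2 fold change of -0.81. DESeq2 called 7 members lower, where 0.664% of its genes were. With the wider macrophage-like class edgeR again called 0 members and 0% of genes. The smallest adjusted p of a member was 0.200, for Cdc25b (-0.91 ± 0.14) and Tipin (-0.72 ± 0.11). The library labelled Per2-/- on day 4 decided the count, and without it edgeR called 41 members lower (21 replication, 3 G1/S and 17 mitosis), where 3.96% of all genes were. In that fit Tyms was at -1.06 (adjusted p 0.010), Mcm6 at -1.61, Mcm5 at -1.38 and Ccne2 at -2.04, and days 7 and 10 alone stand for Per2-/-. The macrophage-like cells of Per2-/- on day 4 number 198, and those of WT on day 4 number 152. The part of cell number in this was not tested.

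For Per1-/- against WT edgeR called 0 of 50 members and 0.00782% of all genes, with 2 members lower at an unadjusted p under 0.05, where 4.22% of genes were, and DESeq2 called 0. For Per1-/- against Per2-/- it called 0 of 50 members and 0.00782% of all genes. At an unadjusted p under 0.05, 33 members were higher, where 6.69% of genes were, and 0 lower, and DESeq2 called 0. Without the library labelled Per2-/- on day 4 edgeR called 36 members higher (15 replication, 2 G1/S and 19 mitosis), where 4.14% of all genes were, among them Tyms (1.05 ± 0.14), Bub1 (1.56 ± 0.29), Mcm6 (1.28 ± 0.24) and Birc5 (1.15 ± 0.21).

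Across days, with the genotypes as repeats of a day, no member was called by edgeR in macrophage-like cells. For day 7 against day 4 edgeR called 0 of 50 members and 0.344% of all genes, with 17 members lower and 0 higher at an unadjusted p under 0.05, where 8.79% and 10.4% of genes were, and DESeq2 called 2 lower, where 1.63% of its genes were. The smallest adjusted p was 0.0869, for Tipin (-0.52 ± 0.11). For day 10 against day 7 edgeR called 0 of 50 members and 0.962% of all genes, with 28 lower and 1 higher (Pcna, 0.54) at an unadjusted p under 0.05, where 3.51% and 3.89% of genes were, and DESeq2 called 0. From day 4 to day 7 all 50 members were lower in Per1-/- and in Per2-/-. In WT 17 of 25 replication (median log2 ratio -0.13) and 2 of 3 G1/S members were lower too, and 21 of 22 mitosis members were higher (median 0.24), with 1 library behind each value. From day 7 to day 10, 49, 47 and 49 of 50 members were lower in WT, Per1-/- and Per2-/-. These counts by direction have no share of all genes beside them.

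In fibroblast-like cells the mitosis members summed to 591, 724 and 761 CPM in WT, Per1-/- and Per2-/- at day 4, 372, 517 and 341 CPM at day 7, and 461, 307 and 414 CPM at day 10. In the wider class the mitosis sums were 503, 608 and 693 CPM, then 265, 211 and 252 CPM, then 302, 182 and 155 CPM, so that their level on days 7 and 10 rests on how the class is drawn. The clusters that make up the class also changed between libraries, as given above, and the part of this in the sums was not tested. The replication members moved less, with 473, 525 and 547 CPM, then 434, 414 and 394 CPM, then 468, 418 and 425 CPM. From day 4 to day 7, 42 of 50 members were lower under all 3 labels, among them 22 of 22 mitosis members. The share of all genes lower under all 3 labels is not given here. edgeR called 0 of 50 members and 0% of 16746 genes for this step. At an unadjusted p under 0.05, 41 members were lower and 0 higher, including all 22 mitosis members, where 7.80% and 8.37% of all genes were. DESeq2 called 22 members lower, where 2.66% of its genes were. Their adjusted p started at 0.0661, for Cdc25c, a phosphatase that activates Cdk1 (-1.32 ± 0.18), followed by Birc5 (-1.10 ± 0.16) and Cdc20 (-0.995 ± 0.15). In the wider fibroblast-like class edgeR called 19 members lower (2 replication and 17 mitosis), where 1.17% of genes were.

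For day 10 against day 7 in fibroblast-like cells edgeR called 1 of 50 members higher, where 0.860% of all genes were. This was Pcna (0.91 ± 0.09, adjusted p 0.00230), which stood at 26.5 to 29.4 CPM on day 7 and 51.4 to 57.8 CPM on day 10. Pcna went from 20.9 to 26.5 CPM on day 7 to 39.2 to 42.7 CPM on day 10 in neuron-like cells as well, and from 19.95 to 27.9 CPM to 39.6 to 52.8 CPM in skeletal muscle-like cells, so that the days did not overlap in these 3 classes, nor in mesothelial-like cells (25.8 to 34.3 CPM, then 39.7 and 59.2 CPM in 2 sums). They did overlap in Schwann-like cells (64.0 to 117 CPM and 99.4 to 161 CPM), in macrophage-like cells, and in astrocyte-like cells, where the level was 45.7 to 86.5 CPM on day 7 and 67.6 and 74.5 CPM in the 2 day 10 sums with enough cells. The day 10 libraries were also processed with another version of Cell Ranger and another feature table, so that day and table cannot be told apart for Pcna.

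For the genotypes in fibroblast-like cells edgeR called 0 of 50 members and 0% of all genes for Per1-/- against WT, with 0 members at an unadjusted p under 0.05, and DESeq2 called 0. For Per2-/- against WT it called 0 of 50 members and 0% of all genes, with 1 member lower at an unadjusted p under 0.05 (Mcm6, -0.50), where 3.52% of genes were, and DESeq2 called 0. Mcm6 stood at 39.8, 20.4 and 17.8 CPM in Per2-/- and at 41.5, 35.4 and 32.7 CPM in WT on days 4, 7 and 10.

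Whether a change differed between macrophage-like and fibroblast-like cells was tested in one fit over both. For day 7 against day 4 edgeR called 0 of 50 members and 0.270% of 15933 genes, with 5 higher and 1 lower at an unadjusted p under 0.05, where 1750 and 752 of all genes were, and DESeq2 called 0. With the wider fibroblast-like class edgeR called 13 mitosis members higher, where 1.41% of genes were, and no member of the other lists. For day 10 against day 7 it called 0 of 50 and 0.0251% of all genes, with 0 higher and 18 lower at an unadjusted p under 0.05, where 2.35% of genes were lower, and DESeq2 called 0. For Per1-/- against WT it called 0 of 50 and 0% of all genes, with 0 at an unadjusted p under 0.05, and DESeq2 called 0. For Per2-/- against WT it called 0 of 50 and 0% of all genes, with 35 lower and 0 higher at an unadjusted p under 0.05, where 4.68% and 8.86% of genes were, and DESeq2 called 12 lower, where 0.701% of its genes were. Without the library labelled Per2-/- on day 4, edgeR called 18 members lower (14 replication, 3 G1/S and 1 mitosis) for this last difference, where 2.37% of 15879 genes were.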

How the data were processed

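The values are whole-number UMI counts, one per gene and barcode, which the authors deposited after alignment of 10x 3′ libraries to mm10. The labels name Cell Ranger 7.1, and per the file headers it was 4.0.0 for days 4 and 7 and 6.0.0 for day 10, with feature tables of 31053 and 32285 genes, of which 30406 are in both. Barcodes under 3000 UMI or over 20% mitochondrial UMI were left out, as were the cells with the highest Scrublet scores (0.8% of barcodes per 1000 barcodes of a library). This rate follows all barcodes of a library, also those that did not pass. The part of passing cells set aside was therefore largest in WT on day 10 (1222 of 6847), followed by Per2-/- on day 10 (1417 of 11934). Cells of all libraries were clustered together in scanpy 1.11.5 (2000 variable genes, 30 principal components, 15 neighbours, Leiden resolution 1 in leidenalg 0.10.2, no correction between libraries) without the members and other listed cell cycle genes. Clusters were named from fixed markers, with a mean log2 fold of at least 1 and at least 3 markers raised, or for fibroblast-like clusters at least 10 markers in at least 50% of cells. The latter also needed a minimum level of these markers relative to the highest cluster, and a mean log2 fold under 1 for every other marker list. A cluster with 19 fibroblast markers, 95.1% of it from Per2-/- on day 10, stayed unnamed under these rules. That library held 1995 fibroblast-like cells, and 7103 in the wide class. Clusters of over 50% doublets, or led by another class's markers, stayed unnamed.

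Counts were summed per class and library (at least 20 cells) and tested in edgeR 4.0.16 (R 4.3.3) with TMM, filterByExpr, the two-sided quasi-likelihood F-test and Benjamini-Hochberg adjustment over all genes, at 0.05, in 17 comparisons. Classes were compared with the library as a block. Days and genotypes were compared in an additive model, which takes the other factor as repeats, so that p-values measure the spread between these single libraries. Each standard error is the log2 fold change over the root of F. The model was tested on simulated counts, and the outcome is not given here. DESeq2 1.42.0, other size factors, filters, clusterings, depths and each library left out were alternatives. Wide fibroblast-like and macrophage-like classes and leaving out shared barcodes were added after seeing the data. The members, gene lists and markers were chosen with earlier results of these data known. Named genes are 12 members in every library, up to 8 called members per list and comparison by p-value, called members that move against their list, the highest and lowest member of each list, and up to 4 of the other listed genes. Promoters are RefSeq windows of GRCm38.p6.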

Additional observations from a re-analysis of the deposited data

Results flagged for a closer look

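The cells in no named class carried mitosis transcripts in 17.9% of cases (95% interval 16.4% to 19.4%, 2647 cells) in the library labelled WT on day 10. In the other 8 libraries the value was 1.61% to 4.85%. The neuron-like share was 2.70% over all libraries, and of the single libraries it was highest in this one. Cells in no named class enter no comparison of the named classes, which is what singled the value out. Of those in this library, 1020 and 814 enter the wide fibroblast-like and macrophage-like classes. In the same library the whole share of cells with mitosis transcripts was 14.99%, against 4.58% to 10.2% in the others. A cluster led by macrophage genes, in which 63.9% of cells over all libraries and 25.1% in this library had been marked as doublets, held 814 of these cells, and 34.5% of the 814 had mitosis transcripts. Cells with mitosis transcripts were marked as doublets in 18.7% of cases and other cells in 9.52%. The part of doublets in the value was not tested.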

How the results depend on the processing

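The class comparisons kept their counts under every alternative run, with 44 to 48 members called in macrophage-like, 45 to 46 in neuron-like, 45 to 46 in Schwann-like and 44 to 45 in skeletal muscle-like cells, and no call of a named gene reversed. Of 183 such calls, between 179 and 183 stayed past the threshold under each setting other than the wide macrophage-like class, which bears on 47 of them and kept all 47, and the calls lost most often were Cdc25a in macrophage-like and Gins1 in skeletal muscle-like cells. DESeq2 moved the median of all genes for macrophage-like against fibroblast-like cells from -0.17 to 0.11, over more genes. The count for day 7 against day 4 in fibroblast-like cells went from 0 to 4 with no filter on low counts, 22 in DESeq2, 15 at Leiden resolution 2, 24 with the members in clustering and 19 with the wide class. In macrophage-like cells it went from 0 to 1 with no filter and 2 in DESeq2, and for the difference between these classes from 0 to 1 with the members in clustering and 13 with the wide class. For Per2-/- against WT in macrophage-like cells it went from 0 to 4 with no filter and 7 in DESeq2, and for its difference from fibroblast-like cells to 12 in DESeq2. With the members in clustering, cells were sorted partly on the genes then tested. Shares of all genes called stand above for DESeq2 and the wide classes. They are not given for the fits with no filter, at resolution 2 or with the members in clustering. Leaving out each library in turn gave 0 to 41 members for Per2-/- against WT, 0 to 36 for Per1-/- against Per2-/- and 0 to 18 for the difference from fibroblast-like cells, the highest each time without Per2-/- on day 4. The cause was not tested.

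The share of cells with mitosis transcripts depends on its definition, and the order of the classes was read from thinned cells alone. As the mean over libraries, it was 38.6%, 13.7%, 10.1%, 38.1% and 10.5% in macrophage-like, fibroblast-like, neuron-like, Schwann-like and skeletal muscle-like cells thinned to 8000 UMI, 41.9%, 19.8%, 18.4%, 40.7% and 18.5% at 1 UMI or more, 19.2%, 5.58%, 0.61%, 19.3% and 1.08% at 3 UMI or more, and 62.1%, 37.2%, 23.6%, 49.2% and 30.9% without thinning. In fibroblast-like cells it was 8.14% with doublets kept. The median summed CPM of fibroblast-like cells was 453, 426 and 409 for replication members with doublets kept, at resolution 2 and in the wide class, and 509, 346 and 265 for mitosis members, 449 in cells of at least 8000 UMI and 471 without shared barcodes. In the wide macrophage-like class the medians were 909 and 1207, and no count of calls moved. No paired analysis was possible because each genotype and day has 1 library and the labels give no replicate number, beyond the library as a block in the class comparisons and the additive model of day and genotype. Single libraries and counting depth limit all values of rare members.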

Other observations

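Regulators of entry into the cell cycle (30 genes: cyclins D, their kinases and inhibitors, E2F and retinoblastoma genes) were called in both directions in every class, and their difference from the members was not tested. In macrophage-like cells 19 were higher and 9 lower than in fibroblast-like cells, where 37.4% and 47.2% of all genes were. Lower were Ccnd2, a cyclin D (-5.20 ± 0.15 on the log2 scale), and the kinase inhibitor genes Cdkn1c (-5.47 ± 0.20), Cdkn2a (-4.50 ± 0.16) and Cdkn2b (-4.09 ± 0.18). In neuron-like cells 8 were higher and 19 lower, where 38.9% and 40.8% of all genes were, with Rb1, the retinoblastoma gene, at 1.71 ± 0.08, Ccnd1 at -2.21 ± 0.10, Cdk2 at -2.34 ± 0.12 and E2f8 at -4.89 ± 0.27. In Schwann-like cells the counts were 16 and 9, where 29.1% and 37.9% of all genes were, with the D-type cyclin kinase gene Cdk6 at 2.80 ± 0.10, Rb1 at 1.47 ± 0.09, Ccnd3 at -1.20 ± 0.07 and Cdkn1c at -3.37 ± 0.29. In skeletal muscle-like cells they were 10 and 16, where 36.0% and 38.9% of all genes were, with Tfdp2, an E2F partner, at 1.74 ± 0.04, Cdkn1c at 1.93 ± 0.09, Rb1 at 1.69 ± 0.08 and Cdkn2b at -0.89 ± 0.05. Rb1 was higher than in fibroblast-like cells in each of these 4 classes (2.22 ± 0.13 in macrophage-like cells), whether the members were higher or lower there. None of the 30 was called in a day or genotype comparison by edgeR.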
